A study of Homo sapiens with 2 samples.

Results

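A set of 10 genes of the Notch pathway was followed in SNU449 cells, a widely used human liver cancer line: the receptors NOTCH1, NOTCH2 and NOTCH3, the ligands JAG1 and JAG2, the nuclear proteins RBPJ and MAML1, the target genes HES1 and HEY1, and NUMB. These 10 members were taken from a fixed list of symbols and matched to the files by gene identifier, out of 19316 genes listed in either library. The study held 2 libraries, 1 from cells transduced for 7 days with lentivirus carrying a short hairpin RNA (shRNA) against FZD2, a frizzled receptor for Wnt ligands, and 1 from cells transduced in the same way with a negative control shRNA. The first are called knockdown cells here and the second control cells. Poly(A) RNA was sequenced. The cell type label says liver cancer, whereas the growth protocol calls the cells prostate. With 1 library in each group there is no replicate error, and no difference could be tested. The labels name each hairpin by its target alone, and an effect of losing FZD2, another effect of that hairpin and a difference between 2 cultures cannot be told apart.

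Notch is a receptor that signals by being cut. A ligand of the Jagged or Delta-like family on a neighbouring cell pulls on the receptor, an ADAM protease and then the gamma-secretase complex cut it, and the freed intracellular part enters the nucleus, where it joins the DNA-binding protein RBPJ and a Mastermind-like coactivator such as MAML1. This complex switches on genes of the HES and HEY families, which encode repressors. Without the receptor fragment, RBPJ sits with corepressors on the same genes, and NUMB works further upstream as an endocytic adaptor that limits the receptor. In the liver, JAG1 and NOTCH2 are known for their part in forming bile ducts.

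The letters that RBPJ binds are short, and are shown here in the starts of the 2 members that were higher in knockdown cells, HES1 and RBPJ itself. Both stretches come from the RefSeq promoter table (build GRCh38.p14, 250 bases before to 50 after a transcript start), are read 5′ to 3′ on the + strand, and carry in capitals the core motif GTGGGAA or its reverse complement TTCCCAC. The HES1 stretch is chr3:194135898-194136197 and the RBPJ stretch is chr4:26319496-26319795.
HES1: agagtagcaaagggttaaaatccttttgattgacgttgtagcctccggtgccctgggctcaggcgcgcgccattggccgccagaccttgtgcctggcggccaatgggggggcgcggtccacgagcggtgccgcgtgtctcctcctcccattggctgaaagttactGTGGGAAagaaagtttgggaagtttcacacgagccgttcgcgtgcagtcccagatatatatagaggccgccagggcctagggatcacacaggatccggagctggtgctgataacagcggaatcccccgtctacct
RBPJ: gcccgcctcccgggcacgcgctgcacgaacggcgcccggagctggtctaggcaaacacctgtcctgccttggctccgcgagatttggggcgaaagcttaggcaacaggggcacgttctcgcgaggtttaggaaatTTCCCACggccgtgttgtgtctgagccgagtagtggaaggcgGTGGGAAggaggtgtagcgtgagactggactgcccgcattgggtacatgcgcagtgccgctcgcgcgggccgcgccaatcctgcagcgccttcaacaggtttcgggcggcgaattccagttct
The HES1 stretch held the motif 85 bases before the start. The RBPJ stretch held it on the other strand 115 bases before the start and on the same strand 73 bases before it. RBPJ has 5 starts in the table, and the stretch shown was chosen because it holds the letters. The table held 9 of the 10 members, all but HEY1, in 13 stretches. HES1 and RBPJ were the 2 genes among them with the motif on either strand, in 2 of the 13 stretches. Of 11 other target genes in the table, 4 held it, in 4 of their 16 stretches. The 4 genes were HES4 (log2 ratio of FPKM + 1 of 0.25), HES5 and HEYL, unlisted in knockdown cells, and HEY2, unlisted in both libraries. HES2, which had the largest ratio of the HES genes, held none. Of all 35116 promoters of the same length, 2194 (6.25%) held the motif at least once and 87 (0.248%) at least 2 times. A match of letters is a description of the sequence and not a binding site, and no binding was measured here.

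In knockdown cells, RBPJ and HES1 were higher and NOTCH1, NOTCH2, JAG1, JAG2, MAML1 and NUMB were lower than in control cells. On the scale of FPKM + 1 used below, RBPJ and MAML1 alone differed by at least 2-fold. By read counts scaled to the library totals, with nothing added, JAG1 (log2 ratio -1.08) and NOTCH1 (-1.01) were also past 2-fold. The levels given here are FPKM, reads scaled by the authors to transcript length and library depth, and can be compared between genes. In knockdown cells the order of the measured members was RBPJ, HES1, NUMB, NOTCH2, JAG1, JAG2, MAML1 and NOTCH1, between 17.61 and 1.47 FPKM. In control cells it was NUMB, NOTCH2, JAG1, HES1, RBPJ, MAML1, JAG2 and NOTCH1, between 12.39 and 2.97 FPKM. There NOTCH2 (8.33 FPKM), JAG1 (8.31) and HES1 (8.29) were nearly level, and with no replicates no neighbours in either order can be separated. A gene was called measured at 1 FPKM or more in at least 1 library. That held for 8 of the 10 members and 14377 genes in all, and all 8 reached 1 FPKM in both libraries.

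**Figure D1:**
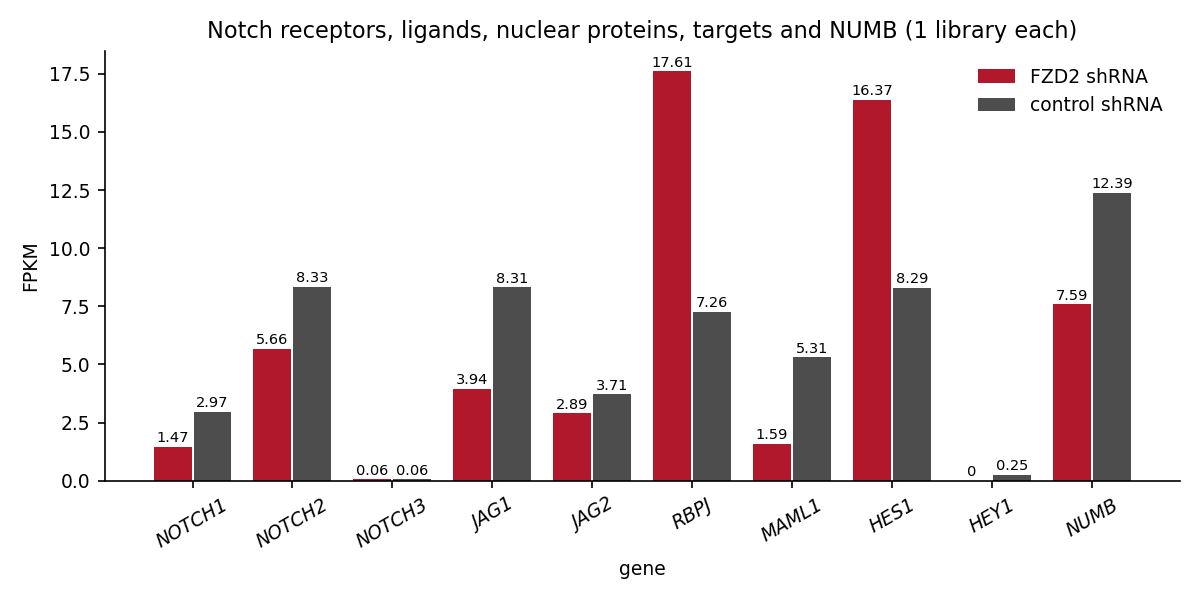
FPKM (vertical axis) of the 10 genes (horizontal axis) in knockdown cells (red, left bar) and control cells (grey, right bar), 1 library each, with the value above each bar. RBPJ (17.61 in knockdown, 7.26 in control cells) and HES1 (16.37 in knockdown, 8.29 in control cells) are higher in knockdown cells, the other 6 measured genes are lower, and NOTCH3 and HEY1 are near 0 in both.

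Differences are given as the log2 ratio of FPKM + 1, FZD2 shRNA over control, a scale that shrinks the differences of weakly expressed genes. A gene was called higher or lower at a 2-fold ratio in either direction, where the log2 ratio reaches 1 or -1. By that rule 1 of the 8 measured members was higher and 1 lower. Among all 14377 measured genes, 15.2% were higher and 7.41% lower by the same rule, so 1 of 8 in each direction is near the background. Their median log2 ratio was -0.56, against 0.00 over all measured genes and -0.25 over the 8154 measured genes without shared reads. Reads are called shared where an expected count was not whole in either library. Of the 8 measured members 7 had none, and NOTCH2 is the exception. Among genes without shared reads, 4.19% were at least 2-fold higher and 10.2% lower. A ratio below 0 was found in 6 of the 8 members, 50.1% of all measured genes and 64.7% of those without shared reads.

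**Figure D2:**
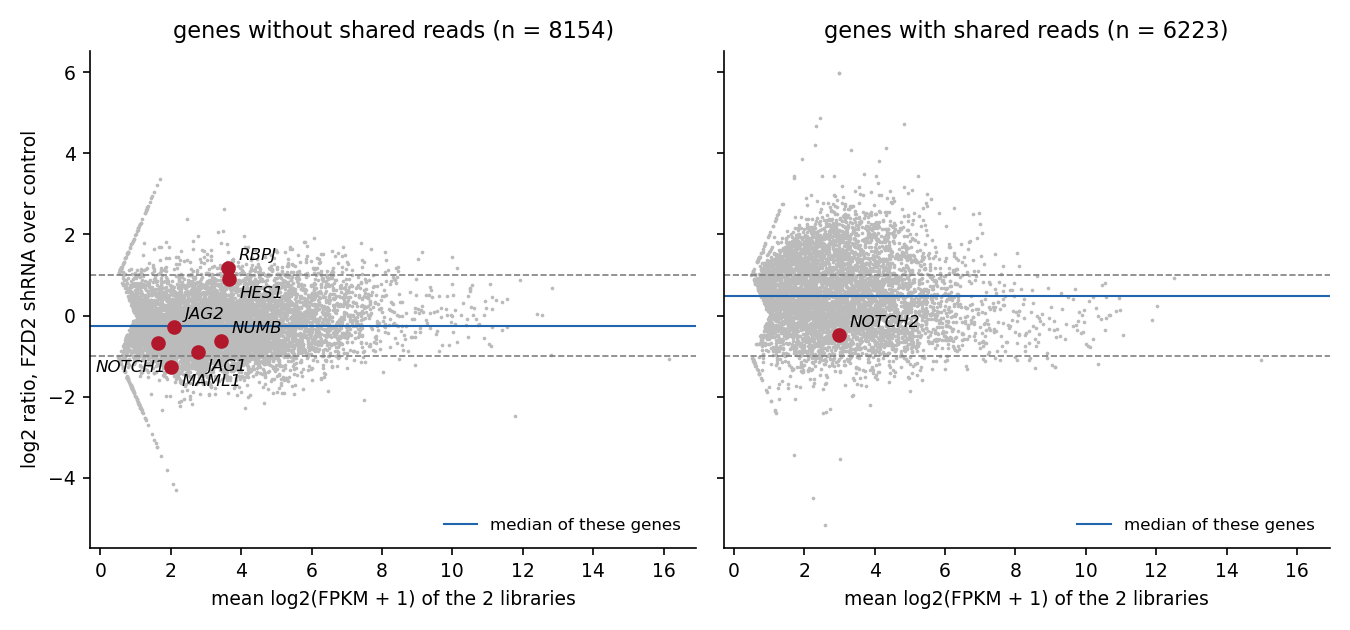
Each grey point is a measured gene, with the mean log2(FPKM + 1) of the 2 libraries on the horizontal axis and the log2 ratio of FPKM + 1, FZD2 shRNA over control, on the vertical axis, split by whether its reads were shared. The 8 measured members are red, dashed lines mark 2-fold, and the blue lines are the medians of -0.25 (left) and 0.48 (right). RBPJ and HES1 lie in the upper part of the cloud without shared reads, and MAML1 in its lower part.

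The targeted transcript was lower in the library labelled as its knockdown. FZD2 was at 15.76 FPKM in knockdown cells and 59.45 FPKM in control cells, a log2 ratio of -1.85, from counts that were not whole. The libraries held 8234592 (knockdown) and 8436870 (control) expected counts. The intervals below are 95% exact binomial intervals of the ratio of expected counts, rounded and scaled to these totals. They cover counting error only, and they exclude no difference for 72.3% of all measured genes. Of 14 hepatocyte markers 3 were measured, namely the fibrinogen genes FGA, FGB and FGG, while ALB was at 0.05 FPKM in knockdown and 0 in control cells, AFP at 0.24 in knockdown and 0.17 in control cells, and APOB, APOC3 and TTR at 0 in both. Of 10 endothelial markers 2 were measured, PECAM1 (2.33 FPKM in knockdown, 0.41 in control cells) and EMCN (1.2 in knockdown, 0.41 in control cells), both with shared reads, and VWF, TIE1 and ERG were at 0 in both. Their summed level was 4.24 FPKM in knockdown cells and 1.53 in control cells. Of 8 leukocyte markers 4 were measured, with sums of 94.26 FPKM in knockdown and 27.79 in control cells, most of it LYZ (71.47 in knockdown, 12.31 in control cells), which had shared reads, and CD3E and MS4A1 were at 0 in both. The fibroblast and stellate list had 4 of 8 genes measured, with sums of 341.1 FPKM in knockdown and 434.5 in control cells. Most of that gap was COL1A2 (198.5 in knockdown, 306.4 in control cells). RGS5 and COL3A1 were also lower in knockdown cells, whereas COL1A1 was higher (119.9 in knockdown, 100.1 in control cells). Of 10 prostate markers 5 were measured, with sums of 16.53 FPKM in knockdown and 12.96 in control cells, KLK3 and KLK2 being at 0 in both. The part of these markers in the Notch values was not tested, and in bulk RNA fewer cells of a type and less RNA per cell cannot be told apart.

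Both expressed receptors had lower values in knockdown cells. NOTCH1, a large single-pass receptor with many EGF-like repeats outside the cell, was at 1.47 FPKM in knockdown cells and 2.97 FPKM in control cells. Its log2 ratio was -0.68, short of 2-fold, and it held 115 expected counts in knockdown and 238 in control cells, for a count log2 ratio of -1.01 (interval -1.35 to -0.69). The count ratio, which has no pseudocount, is the larger of the pair.

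NOTCH2 was the receptor with the highest level in both libraries, at 5.66 FPKM in knockdown cells and 8.33 in control cells, a log2 ratio of -0.49. Its expected counts were 544.01 in knockdown and 823.02 in control cells, with a count log2 ratio of -0.56 (-0.72 to -0.40). The count intervals of NOTCH1 and NOTCH2 overlap. NOTCH2 was 3.85 times the level of NOTCH1 in knockdown cells and 2.81 times in control cells, on the FPKM scale. NOTCH2 has partial human copies, the NOTCH2NL genes, which arose by duplication of its first exons. NOTCH2NLA, the copy listed in the files, was at 3.21 FPKM in knockdown cells and 1.97 FPKM in control cells, a log2 ratio of 0.50, opposite in sign to that of NOTCH2. Its expected counts of 142.55 in knockdown and 89.95 in control cells were not whole, and its value is uncertain because the counting could split reads between near-identical copies. Added together, NOTCH2 and NOTCH2NLA held 686.56 counts in knockdown cells and 912.97 in control cells, a count log2 ratio of -0.38 (-0.52 to -0.23), still below 0.

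NOTCH3, a receptor best known from vascular smooth muscle, was not measured, with 0.06 FPKM and 4 expected counts in each library. Its count interval runs from -2.39 to 2.46, so a difference of several fold in either direction was not detectable at this depth. NOTCH4, described mainly in endothelium, was at 0.06 FPKM in knockdown and 0.19 in control cells, from 3 counts in knockdown and 10.32 in control cells. In sum, NOTCH1 to NOTCH3 came to 7.19 FPKM in knockdown cells and 11.36 FPKM in control cells.

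Both Jagged ligands had lower values in knockdown cells. JAG1, a transmembrane ligand, was at 3.94 FPKM in knockdown cells and 8.31 FPKM in control cells. Its log2 ratio was -0.91, just short of 2-fold, and its counts of 197 in knockdown and 427 in control cells gave a count log2 ratio of -1.08 (-1.33 to -0.83). JAG2, the other Jagged ligand, was at 2.89 FPKM in knockdown and 3.71 in control cells (log2 -0.28), from 140 counts in knockdown and 184 in control cells, a count log2 ratio of -0.36 (-0.69 to -0.03). The count intervals of JAG1 and JAG2 do not overlap. JAG1 was 1.36 times the level of JAG2 in knockdown cells and 2.24 times in control cells, so the pair lay closer together in knockdown cells.

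The Delta-like ligands gave few reads. DLL1 was at 0.07 FPKM in both libraries, from 2 counts each, DLL3 was at 0.89 FPKM in knockdown and 0.75 in control cells, and DLL4 was unlisted in both. A count of 0 allows up to 0.364 CPM in knockdown cells and 0.356 in control cells. DLK2, a non-canonical relative, was at 7.18 FPKM in knockdown cells and 4.22 in control cells (log2 0.65, shared reads), and DNER, a Delta-related membrane protein, was at 6.51 in knockdown and 10.06 in control cells (-0.56).

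RBPJ and MAML1, partners in the activating complex, stood at opposite ends of the members. RBPJ, the DNA-binding protein of the pathway, was at 17.61 FPKM in knockdown cells and 7.26 FPKM in control cells, a log2 ratio of 1.17, or 2.25-fold, at the 88.2nd percentile of the ratios of all measured genes. With a pseudocount of 5 FPKM the log2 ratio was 0.88, short of 2-fold. It held 860 expected counts in knockdown and 367 in control cells, for a count log2 ratio of 1.26 (1.09 to 1.44), the best counted of the higher members. RBPJ has processed pseudogenes in the human genome. The pseudogenes RBPJP2, RBPJP5, RBPJP6 and RBPJP7 and the related gene RBPJL were unlisted in both libraries, and the RBPJ counts were whole. The copies RBPJP1, RBPJP3 and RBPJP4 had no identifier in the table and were not analysed here. Whether the authors' annotation held those copies is not stated by any source at hand, so reads from unannotated copies cannot be separated from RBPJ. Of the 10 genes that overlap a member in the RefSeq annotation, 5 of them at RBPJ, 0 were listed in either file. The mean transcript length of RBPJ in the files was 5843 bases in knockdown cells and 5890 in control cells, and the FPKM and count ratios of RBPJ were close.

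MAML1, which bridges the receptor fragment to histone acetyltransferases, was at 1.59 FPKM in knockdown cells and 5.31 FPKM in control cells. That is a log2 ratio of -1.28, or 2.44-fold lower, at the 3.1st percentile of the same ratios. It was -0.65 with a pseudocount of 5 FPKM, which ends the 2-fold call. Its counts of 76 in knockdown and 261 in control cells gave a count log2 ratio of -1.74 (-2.13 to -1.37), an interval that does not overlap those of JAG1 and NOTCH1. RBPJ was 11.1 times the level of MAML1 in knockdown cells and 1.37 times in control cells. The other Mastermind-like coactivators did not share one direction. MAML3 was at 0.57 FPKM in knockdown cells and 1.55 in control cells (log2 -0.70, or -1.30 with a pseudocount of 0.1 FPKM and -1.24 in CPM), and MAML2 at 3.17 in knockdown and 1.78 in control cells (0.58), both with shared reads.

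HES1 was the only target among the members with a usable level. HES1, a basic helix-loop-helix repressor, was at 16.37 FPKM in knockdown cells and 8.29 FPKM in control cells. Its log2 ratio was 0.90, or 1.87-fold, short of the 2-fold rule, and its counts of 198 in knockdown and 103 in control cells gave a count log2 ratio of 0.98 (0.63 to 1.34). The intervals of HES1 and RBPJ overlap. HEY1, a related repressor, was unlisted in knockdown cells and at 0.25 FPKM in control cells, from 5 counts. Set against the limit of 3 counts that a count of 0 allows in knockdown cells, the 5 control counts gave a ratio of 1.63-fold. That ratio takes the 5 counts as exact and is not a lower bound of the difference. The count interval of HEY1 had no lower end and an upper end of 0.16. It leaves out larger rises but still holds no difference.

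NUMB, the endocytic adaptor that restrains the receptor, was at 7.59 FPKM in knockdown cells and 12.39 FPKM in control cells. Its log2 ratio was -0.64, and its counts of 220 in knockdown and 373 in control cells gave a count log2 ratio of -0.73 (-0.97 to -0.48). NUMBL, its paralogue, was at 12.65 FPKM in knockdown and 11.29 in control cells (0.15, shared reads). NUMB thus headed the members in control cells, and stood below RBPJ and HES1 in knockdown cells.

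**Figure D3:**
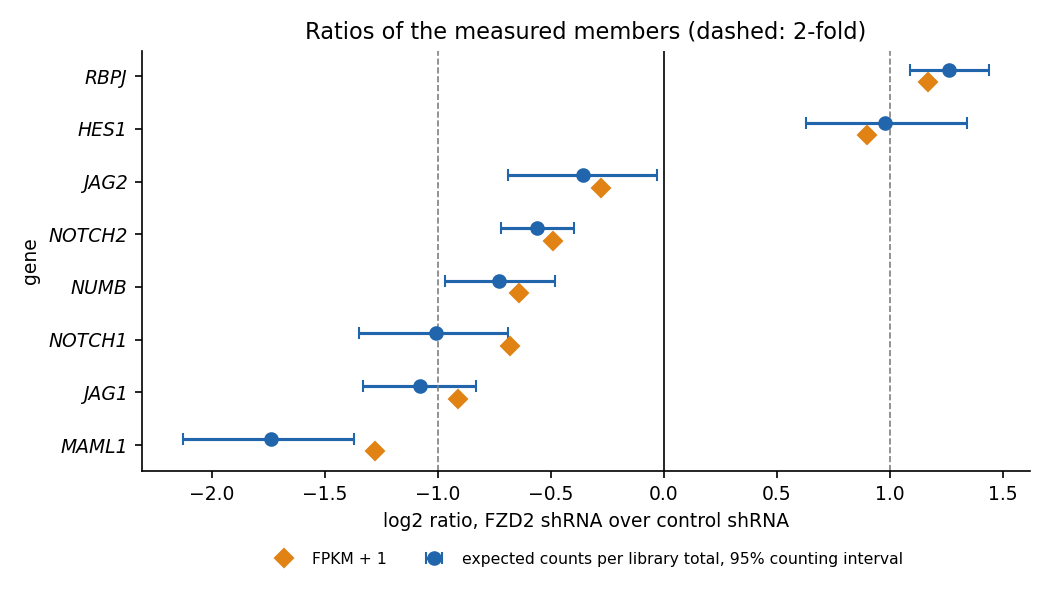
Log2 ratio, FZD2 shRNA over control (horizontal axis), of the 8 measured members (vertical axis). Blue points are expected counts scaled to the library totals with 95% counting intervals, orange diamonds are FPKM + 1, and dashed lines mark 2-fold. All 8 intervals exclude 0, those of RBPJ and HES1 above it and the other 6 below it. The intervals of MAML1 (-2.13 to -1.37) and RBPJ (1.09 to 1.44) lie wholly beyond 2-fold.

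The intervals of 6 measured members lay wholly below 0 and those of 2 wholly above it. Of all measured genes, 36.8% had an interval below 0 and 35.5% above, and among those without shared reads 48.1% and 19.4%, so an interval that excludes 0 is common in this pair of libraries. Gene ratios also moved with GC content, the share of G and C bases in the transcripts, and the members span 41.9% (RBPJ) to 64.2% (JAG2). Among genes without shared reads and within 2 percentage points of the GC content of RBPJ, the median log2 ratio was -0.53 (1271 genes), while RBPJ was at 1.17. Near HES1 it was -0.36 and near MAML1 -0.14. Near NOTCH2, JAG1 and NUMB, whose own ratios were -0.49, -0.91 and -0.64, it was -0.38, -0.37 and -0.48. Near the GC-rich NOTCH1 and JAG2, whose own ratios were -0.68 and -0.28, it was 0.10 and 0.15. With the GC trend taken out, RBPJ was at 1.69, HES1 at 1.26, MAML1 at -1.14, NOTCH1 at -0.81, JAG1 at -0.54, JAG2 at -0.44, NUMB at -0.18 and NOTCH2 at -0.11. HES1 passed 2-fold under that setting, and NUMB and NOTCH2 came close to 0. The trend was fitted on genes without shared reads, so NOTCH2 was not among the fitted genes. Taking it out also moved the median of all measured genes from 0.00 to 0.23. The part of GC content in these ratios was not tested. No setting tried turned the sign of any of the 8, though the filters and FPKM pseudocounts could not have done so.

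**Figure D4:**
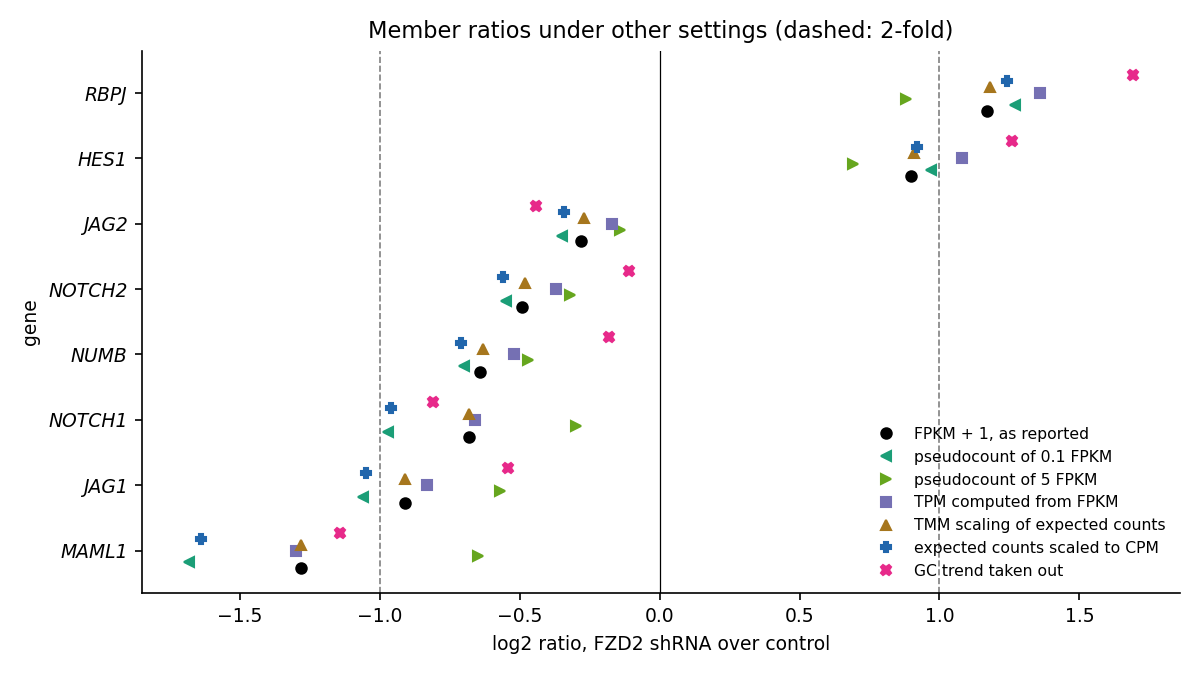
Log2 ratio, FZD2 shRNA over control (horizontal axis), of the 8 measured members (vertical axis) as reported (black circles) and under 6 other settings (other marks). Dashed lines mark 2-fold. Each member keeps its side of 0, which a change of FPKM pseudocount alone cannot alter. MAML1 ranges from -1.68 to -0.65 with the pseudocount, and NOTCH2 and NUMB lie nearest 0 with the GC trend taken out.

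The rest of the pathway was described with 7 lists of 86 genes, of which 70 were measured. Of these 70, 8 were at least 2-fold higher and 4 at least 2-fold lower, with a median log2 ratio of -0.11. Over all measured genes the shares were 15.2% higher and 7.41% lower. Of the 8 higher genes 5 had shared reads, so 3 were higher among the 44 pathway genes without them, beside 4.19% of all genes without shared reads. All 4 lower genes were without shared reads, and 10.2% of all such genes were lower. Among receptor-modifying enzymes, which set the sugars on the receptor and so its ligand preference, 0 of 8 measured passed 2-fold in either direction, although GXYLT1 did with the GC trend taken out (1.17). The fringe genes LFNG (2.46 FPKM in knockdown cells, 2.45 in control cells) and MFNG (2.68 in knockdown, 2.9 in control cells) were nearly level, and RFNG was at 13.94 in knockdown and 9.56 in control cells (log2 0.50). GXYLT1 was at 5.78 FPKM in knockdown and 3.31 in control cells (0.65, shared reads) and POGLUT1 at 2.54 in knockdown and 3.52 in control cells (-0.35).

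Of 9 measured genes of the cleavage machinery, 1 was at least 2-fold higher and 1 lower, beside 15.2% higher and 7.41% lower over all measured genes. ADAM10, the main protease of the ligand-triggered cut, was at 8.61 FPKM in knockdown cells and 36.61 FPKM in control cells (log2 -1.97, counts 356 in knockdown and 1573 in control cells, count log2 ratio -2.11 with interval -2.28 to -1.94). ADAM17, a related protease, was at 11.73 FPKM in knockdown and 18.43 in control cells (-0.61, shared reads). Within gamma-secretase, PSEN2 was at 13.96 FPKM in knockdown and 12.83 in control cells (0.11), NCSTN at 15.83 in knockdown and 22.98 in control cells (-0.51) and APH1A at 25.83 in knockdown and 35.17 in control cells (-0.43). The small subunit PSENEN was higher, at 63.44 FPKM in knockdown cells and 30.54 in control cells (1.03, shared reads), although its log2 ratio was 0.95 with a pseudocount of 5 FPKM.

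The nuclear partners also had ratios on both sides of 0. Beside the counts below, 15.2% of all measured genes were at least 2-fold higher and 7.41% lower. Of 7 measured coactivators, KAT2B, an acetyltransferase, was at least 2-fold lower, at 2.09 FPKM in knockdown cells and 5.37 in control cells (log2 -1.04, or -0.54 with the GC trend taken out and -0.55 with a pseudocount of 5 FPKM). Its relative KAT2A was at 9.16 FPKM in knockdown and 17.5 in control cells (-0.86), while EP300 (5.83 in knockdown, 5.93 in control cells), CREBBP (3.86 in knockdown, 4.32 in control cells) and SNW1 (60.92 in knockdown, 63.77 in control cells) were within 0.13 of no difference on the log2 scale. Of 15 measured genes in the corepressor list, 2 were higher and 1 was lower. One entry of that list, KYAT1 (log2 -0.21), encodes an aminotransferase and is not a corepressor of Notch. HDAC1, a histone deacetylase, was at 21.76 FPKM in knockdown cells and 64.92 in control cells (-1.53), whereas HDAC2 was at 31.59 in knockdown and 26.69 in control cells (0.24, shared reads). KDM5A, a histone demethylase reported to act with RBPJ, was at 19.13 FPKM in knockdown and 4.86 in control cells (1.78). NCOR1 was at 78.41 FPKM in knockdown cells and 26.02 in control cells (1.56, shared reads), but its counts of 2409.44 in knockdown and 1266.73 in control cells gave a smaller count log2 ratio of 0.96 (0.86 to 1.06). The mean transcript length used for NCOR1 was 3691 bases in knockdown cells and 5672 in control cells, and the FPKM ratio moved with it.

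Target genes beyond the members had no common direction. Of 10 measured, 1 was at least 2-fold lower and 1 higher, with a median log2 ratio of 0.11. Over all measured genes the shares were 7.41% lower and 15.2% higher. NRARP, a target that feeds back on the receptor fragment, was at 1.05 FPKM in knockdown cells and 2.22 in control cells (-0.65, counts 23 in knockdown and 50 in control cells, count interval -1.87 to -0.35), on the other side of 0 from HES1. HES4 was at 11.19 FPKM in knockdown and 9.27 in control cells (0.25), HES6 at 7.34 in knockdown and 7.48 in control cells (-0.02) and HES7 at 7 in knockdown and 4.88 in control cells (0.44). These 3 HES genes differed by between 1.02-fold and 1.36-fold on the FPKM + 1 scale. HES2 had the largest ratio of the family, at 16.75 FPKM in knockdown and 3.44 in control cells (count log2 ratio 2.28), but its reads were shared. HES5 and HEYL were unlisted in knockdown cells and had 1 and 5 counts in control cells, and HEY2 was unlisted in both. MYC, which many signals other than Notch control, was at 25.28 FPKM in knockdown and 65.44 in control cells (-1.34), CDKN1A at 6.28 in knockdown and 11.73 in control cells (-0.81) and CCND1 at 148.8 in knockdown and 114.7 in control cells (0.37).

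Of 19 measured genes of receptor and ligand trafficking, 4 were at least 2-fold higher, 2 of them with shared reads, and 0 lower, beside 15.2% higher and 7.41% lower over all measured genes. EPN1, an epsin needed for ligand endocytosis, was at 190.9 FPKM in knockdown cells and 68.71 in control cells (log2 1.46, counts 3881 in knockdown and 1455 in control cells). FBXW7, which marks the receptor fragment for degradation, was at 8.85 FPKM in knockdown and 3.54 in control cells (1.12). LNX2, a ligase of the family that targets NUMB, was at 8.14 in knockdown and 2.48 in control cells (1.39), and AAK1, a kinase of clathrin adaptors, at 11.68 in knockdown and 4.45 in control cells (1.22), both with shared reads. With a pseudocount of 5 FPKM, FBXW7 (0.70), LNX2 (0.81) and AAK1 (0.82) fell short of 2-fold. The ligase ITCH was at 4.4 FPKM in knockdown cells and 7.66 in control cells (-0.68, shared reads), and MIB1, the ligase that acts on the ligands, at 3.38 in knockdown and 4.93 in control cells (-0.44).

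**Figure D5:**
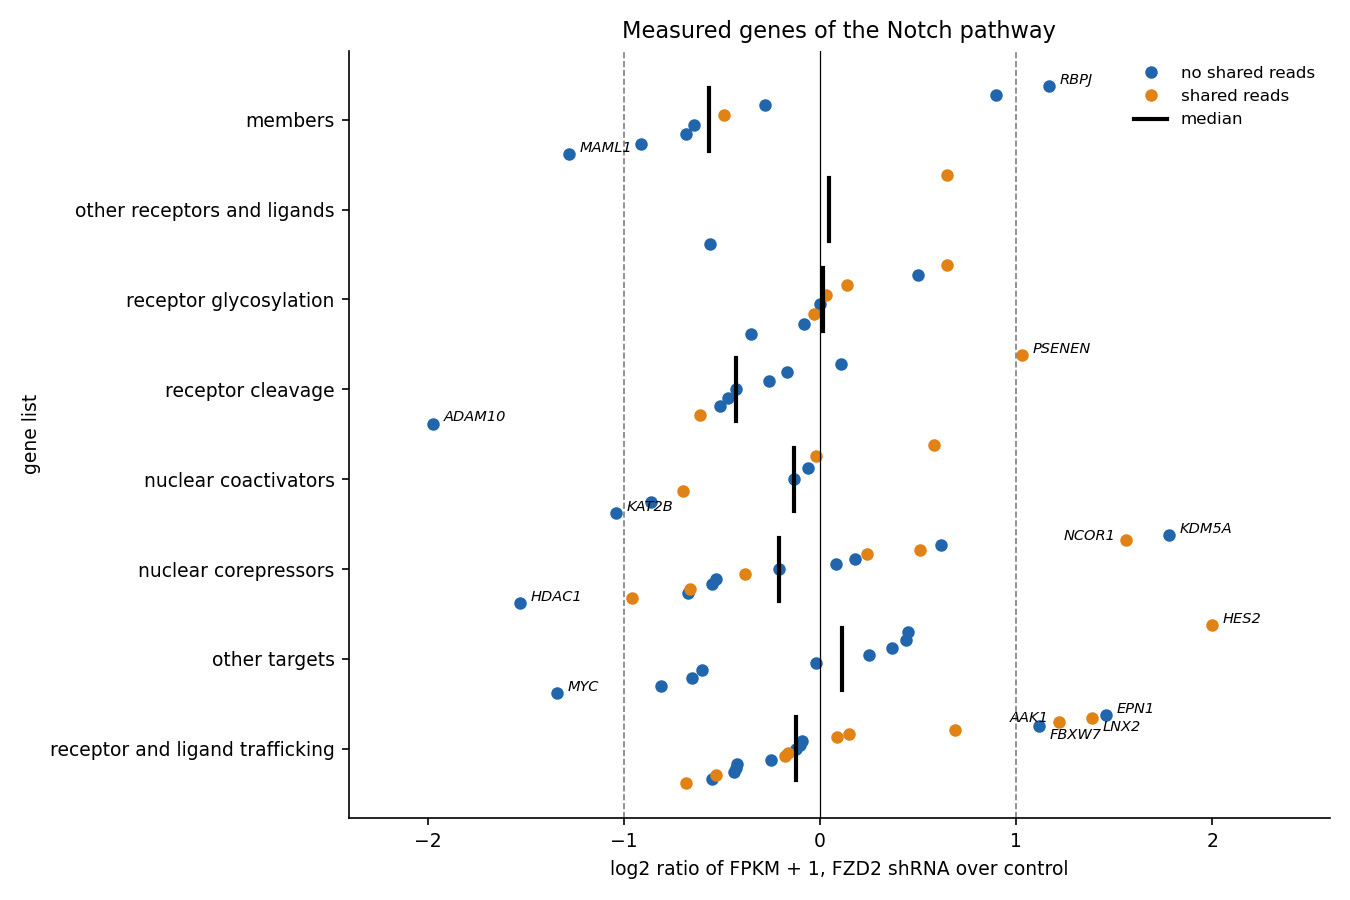
Log2 ratio of FPKM + 1, FZD2 shRNA over control (horizontal axis), of each measured gene in the members and in the 7 pathway lists (vertical axis), with genes without shared reads in blue, genes with shared reads in orange and the list median as a black bar. Dashed lines mark 2-fold and genes beyond them are named. The members have a median of -0.56 with MAML1 and RBPJ beyond the lines, and ADAM10 (-1.97) and HES2 are the ends of the plot.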

How the data were processed

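RNA of 2 SNU449 libraries (FZD2 shRNA and control shRNA) was sequenced on a BGISEQ-500 after poly(A) selection, per the labels' protocols and the series design. Build hg19 and the tools HISAT and Bowtie2 are listed in the submitters' processing notes, with no version or role. The counting program, annotation and strand setting are not stated by any source at hand. The deposited expected counts are the authors' estimates of reads for each gene and carry no normalization. For the deposited FPKM values, the authors divided by gene length and library depth. A gene absent from a file was taken as 0.

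Symbols came from the RefSeq table (GRCh38.p14), which held 99.5% of the listed genes. Gene coordinates are not given because the builds differ. The ratio reported is log2 of FPKM + 1 in knockdown over FPKM + 1 in control cells, without rescaling. Count ratios carry the exact conditional binomial 95% interval on rounded counts. Amplified copies of a read are not separate molecules, so intervals and the limit of 3 counts for a count of 0 cover counting error only. A count was called whole to a tolerance of 0.001. GC content came from GENCODE release 29 transcripts matched by RefSeq accession (96.1% of measured genes), and its trend was a lowess fit (fraction 0.3) over measured genes with no shared reads. The ratio and interval steps were run on simulated Poisson counts, and the GC step on a simulated trend. The simulated counts hold no spread between cultures, amplified copies or shared reads, so they check the computation alone.

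The members and gene lists were chosen with earlier results of these data known. Every member, every pathway gene past 2-fold, the 3 measured genes with the largest log2 ratio in size in each list and every listed copy of a member are named. Other pathway genes (such as EP300, the HES genes and MIB1) were chosen by role after their values were seen. CIR1, RBPJP1, RBPJP3 and RBPJP4 had no identifier in the table. With 2 libraries, no likeness of patterns between genes was computed. The 10 alternatives were pseudocounts of 0.1 and 5 FPKM, no filter, a minimum of 5 FPKM, counts as CPM, TMM scaling (edgeR 4.0.16), centring on the median ratio, TPM, the GC trend taken out, and genes without shared reads only. As with FPKM, 1 was added to the CPM, TMM-scaled and TPM values before the log. Analyses used R 4.3.3 and Python 3.11.15 with SciPy 1.17.1, NumPy 2.4.6, matplotlib 3.10.9, statsmodels 0.14.6 and pandas 2.3.3.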

Additional observations from a re-analysis of the deposited data

How the results depend on the processing

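The 8 measured members kept the sign of their ratio in all 77 values computed under the 10 alternatives, and the 2-fold call changed in 6 of those. Many of the sign agreements were fixed in advance. Settings that only change which genes are kept leave a gene's ratio as it is, and a changed FPKM pseudocount cannot turn its sign. At least 2-fold lower were 2 members with a pseudocount of 0.1 FPKM and 2 in CPM (JAG1 joined MAML1 at -1.06 and -1.05), and 0 with a pseudocount of 5 FPKM (MAML1 -0.65). NOTCH1 was at -0.96 in CPM, to which 1 was added before the log, and at -1.01 by the count ratio without a pseudocount. At least 2-fold higher were 2 members in TPM and 2 with the GC trend taken out (HES1 joined RBPJ at 1.08 and 1.26), and 0 with a pseudocount of 5 FPKM (RBPJ 0.88). Of the other pathway genes, 7 were lower with a pseudocount of 0.1 FPKM, 4 were higher with a pseudocount of 5 FPKM, and 3 were higher among genes without shared reads. Over all measured genes, 1749 were lower with a pseudocount of 0.1 FPKM, 301 lower and 941 higher with 5 FPKM, 350 lower with the GC trend taken out, and 342 higher among genes without shared reads. The split over all measured genes was 1066 lower and 2188 higher as reported, 913 and 2913 in TPM, and 350 and 2950 with the GC trend taken out. TPM moved the median of all measured genes to 0.14 and the GC setting to 0.23, from 0.00. Relative to those medians HES1 is not past 2-fold in TPM. Of 198 values for 21 other named pathway genes, 197 kept their sign, many of them fixed in the same way. POGLUT1 alone turned, to 0.16 with the GC trend taken out. The pseudocount and scaling act by construction, and the cause of the other shifts was not tested. No paired analysis was possible because each group held 1 library, and no library could be left out for the same reason. Depth limits NOTCH3 and HEY1, with 5 or fewer counts in each library.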
